A study of Mus musculus with 42 samples.

Results

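The 7 genes described here encode the subunits of the cleavage and polyadenylation specificity factor (CPSF): Cpsf1, Cpsf4, Wdr33 and Fip1l1 of the module that recognizes the polyadenylation signal, and Cpsf3, Cpsf2 and Sympk of the module that cuts the transcript. They were chosen by gene symbol and not by a measured value, although earlier results of these data were known. They are part of 13651 genes with a polyadenylation site (PAS) and of 12365 genes in the RNA-seq count tables. A PAS was assigned to a gene when it lay on the gene's strand within its span or up to 4 kb downstream, short of the next gene. The 7 genes held 45 of the 61729 PASs in genes, and 14 of the 45 carried at least 5% of their gene's reads.

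CPSF reads the AAUAAA hexamer of a nascent transcript, cuts the RNA a short distance downstream and brings poly(A) polymerase to the new end. Many genes carry several PASs, and the choice among them (alternative polyadenylation, APA) sets the length of the 3′UTR or, for a site in an intron, truncates the transcript. The pre-mRNAs of the CPSF genes are themselves substrates of the machinery that they encode.

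The study asked how arsenite stress changes PAS use, and sequenced 3′ ends of poly(A)+ RNA (3′READS, 38 libraries) and coding RNA (RNA-seq, 4 libraries). NIH3T3 cells, a mouse embryonic fibroblast line, were left untreated (NT), exposed to sodium arsenite (250 µM, 1 h, AS), or exposed, washed and kept in normal medium for 4 h (RC4), with total RNA also taken after 8, 12 and 24 h. C2C12 cells, a mouse muscle line, were used as proliferating myoblasts (MB) and as differentiated myotubes (MT), either untreated for total RNA or as NT, AS and RC4 for cytoplasmic RNA. NIH3T3 RNA was also separated after labelling with 50 µM 4-thiouridine into newly made RNA (4sU) and the unlabelled flow-through (Ft), or taken as cytoplasmic input of a TIA1 immunoprecipitation. AS and RC4 of a set share their NT libraries, and 4sU and Ft are fractions of the same labelled RNA. Total NT and AS had 3 libraries each, untreated MB and MT total RNA 2 each, input NT and AS 2 each, and every other AS or RC4 group 1 library set against 2 NT libraries taken at 0 h and 4 h (total RC4 against 3). The study calls replicates of total RNA, of the TIA1 set and of untreated C2C12 cells biological, without naming what separates them. The paired NT libraries of the other sets are called replicates, without a statement that they are biological. Their labels place them at 0 h and 4 h. The gene-level p-values of these sets therefore measure the spread between such NT libraries, which includes any difference with time and may otherwise be technical. 4sU and Ft were fitted together, as were MB and MT cytoplasm, so each pair shares the spread of the NT libraries of both.

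A 3′READS library held between 1048335 and 6974664 reads (median 2874186) and an RNA-seq library between 17137579 and 25194062. Positions under 5 reads are not listed in the files, so a site given as 0 had fewer than 5 reads. Of 7 genes known to respond to arsenite, 6 rose in the RNA-seq AS library and 7 in RC4. In MB total RNA 1 of 6 myotube markers was listed and in MT all 6 were, with summed levels of 78.3 and 74.4 against 11067 and 11252 RPM (reads scaled to a common library total). The MT libraries still held 181 and 185 RPM of 5 cycling-cell markers, against 1143 and 1206 in MB. Of 5 fibroblast markers, 4 were listed in C2C12 total RNA, with 11437 and 13485 RPM in MT against 1900 and 2000 in MB. The same markers summed to 5959, 2645 and 2299 RPM in untreated NIH3T3 total RNA, less than in MT. Whether the MT cultures held a mixture of cells, and its part in the results on MT below, was not tested. In bulk samples fewer cells of a type and less RNA per cell cannot be told apart.

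Of the genes other than Wdr33, 4 had nearly all of their reads at 1 PAS. Cpsf3 (chr12:21292158-21320917 in mm9, as all positions here) had 99.6% of its reads at a site 89 nt past its last coding base, Sympk (chr7:19609726-19639967) 99.5% at 103 nt, Cpsf1 (chr15:76426239-76438021, minus strand) 99.5% at 80 nt and Cpsf4 (chr5:145928082-145942910) 97.4% at 840 nt. Fip1l1 (chr5:74931474-74994815) had 90.7% of its reads at a proximal PAS (pPAS) 170 nt past the coding sequence and 4.39% at a distal PAS (dPAS) 2807 nt past it, a site under the 5% limit that was chosen after its values were seen. Cpsf2 (chr12:103214184-103244203) spread its reads over 4 PASs of its last exon or just beyond it, at 768 nt (45.0% of reads), 1063 nt (25.5%), 2311 nt (11.4%) and 3207 nt (17.9%), the last of them 432 nt past the annotated transcript end. The windows below show the signal of each site that the results on Fip1l1 and Cpsf2 turn on, and that of Cpsf1, which has a variant signal. They were read from the mm9 genome (NCBIM37) on the gene's strand, 5′ to 3′, with the hexamer in capitals.
Fip1l1 pPAS, chr5:74992141-74992170: aaAATAAAagtgtgcatttttttgtgttaa
Fip1l1 dPAS, chr5:74994786-74994815: atcAATAAAaatgatcttgtgaaatattaa
Cpsf2 768 nt, chr12:103242167-103242196: atcatttgAATAAAtgttatctaaaagaaa
Cpsf2 1063 nt, chr12:103242462-103242491: gtgtgatttaATTAAAggttgtaaatggtt
Cpsf2 2311 nt, chr12:103243710-103243739: ctgagacAATAAAgaagaaattagtttgta
Cpsf2 3207 nt, chr12:103244606-103244635: atttcgctaataAATAAAagatgctgagca
Cpsf1, chr15:76426238-76426267: tataaaacacaAAGAAAacgatttctttca

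The search took AATAAA or ATTAAA within 40 nt upstream of the PAS on the gene's strand, the nearest to the PAS where there were several, and otherwise the nearest AGTAAA or TATAAA or CATAAA or GATAAA or AATATA or AATACA or AATAGA or ACTAAA or AAGAAA or AATGAA. Matches may overlap: the most distal Cpsf2 window holds a second AATAAA that shares bases with the marked one, and the Cpsf1 window also holds TATAAA farther upstream. AATAAA preceded 3 of the 4 Cpsf2 sites, both Fip1l1 sites and the main sites of Cpsf3 (22 nt before the PAS) and Sympk (34 nt before it), while the sites of Cpsf4 and of Cpsf2 at 1063 nt had ATTAAA. Over all PASs in genes, 36.1% had AATAAA, 14.7% ATTAAA, 20.8% another of these hexamers and 28.4% none. Wdr33 (chr18:31963711-32068641) differed in structure, with 5 described PASs. Of its reads, 19.4% ended in intron 6 of a 22-exon transcript, 354 nt past the end of exon 6 and 26 nt after the start of an AATAAA. Its last exon held a cluster of sites 264, 305, 380 and 405 nt past the coding sequence (19.3%, 5.29%, 40.5% and 5.90% of reads), of which those at 305 and 380 nt had none of the hexamers searched.

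Levels were first compared between the genes. In RNA-seq, where reads were divided by coding length and by the library total (RPKM), Fip1l1, the subunit that tethers poly(A) polymerase, stood far above the others, at 462 and 497 in the NT libraries of 0 h and 4 h. Sympk, the scaffold of the cleavage module (48.6 and 44.2), and Cpsf2, the inactive partner of the endonuclease (44.7 and 47.8), came next and overlapped. Cpsf3, the endonuclease (22.4 and 27.9), followed. Wdr33, which contacts the hexamer (17.7 and 18.3), and Cpsf1, the large scaffold of the recognition module (17.4 and 17.8), were within 0.1 of each other at their nearest values, and Cpsf4, the zinc finger subunit that contacts the hexamer, was lowest (9.18 and 5.82). In 3′READS, where a transcript gives 1 end whatever its length, Fip1l1 was the highest of the 7 in 35 of 38 libraries, with a lowest, median and highest level of 81.9, 237 and 703 RPM. Cpsf1 (3.22, 20.4 and 70.8 RPM) and Cpsf4 (6.34, 21.2 and 44.6 RPM) were among the lowest 2 in 30 and 35 libraries. Wdr33 (16.6, 58.6 and 118 RPM), Sympk (23.8, 58.4 and 363 RPM), Cpsf3 (16.7, 48.1 and 83.9 RPM) and Cpsf2 (11.9, 45.0 and 114 RPM) lay between and overlapped. Total RNA replicate 2 gave Sympk 363 RPM in NT and 352 in AS, more than any other library, and replicate 1 gave Cpsf1 70.8 and 67.6, so these highest values went with the replicate and not with the treatment.

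**Figure D1:**
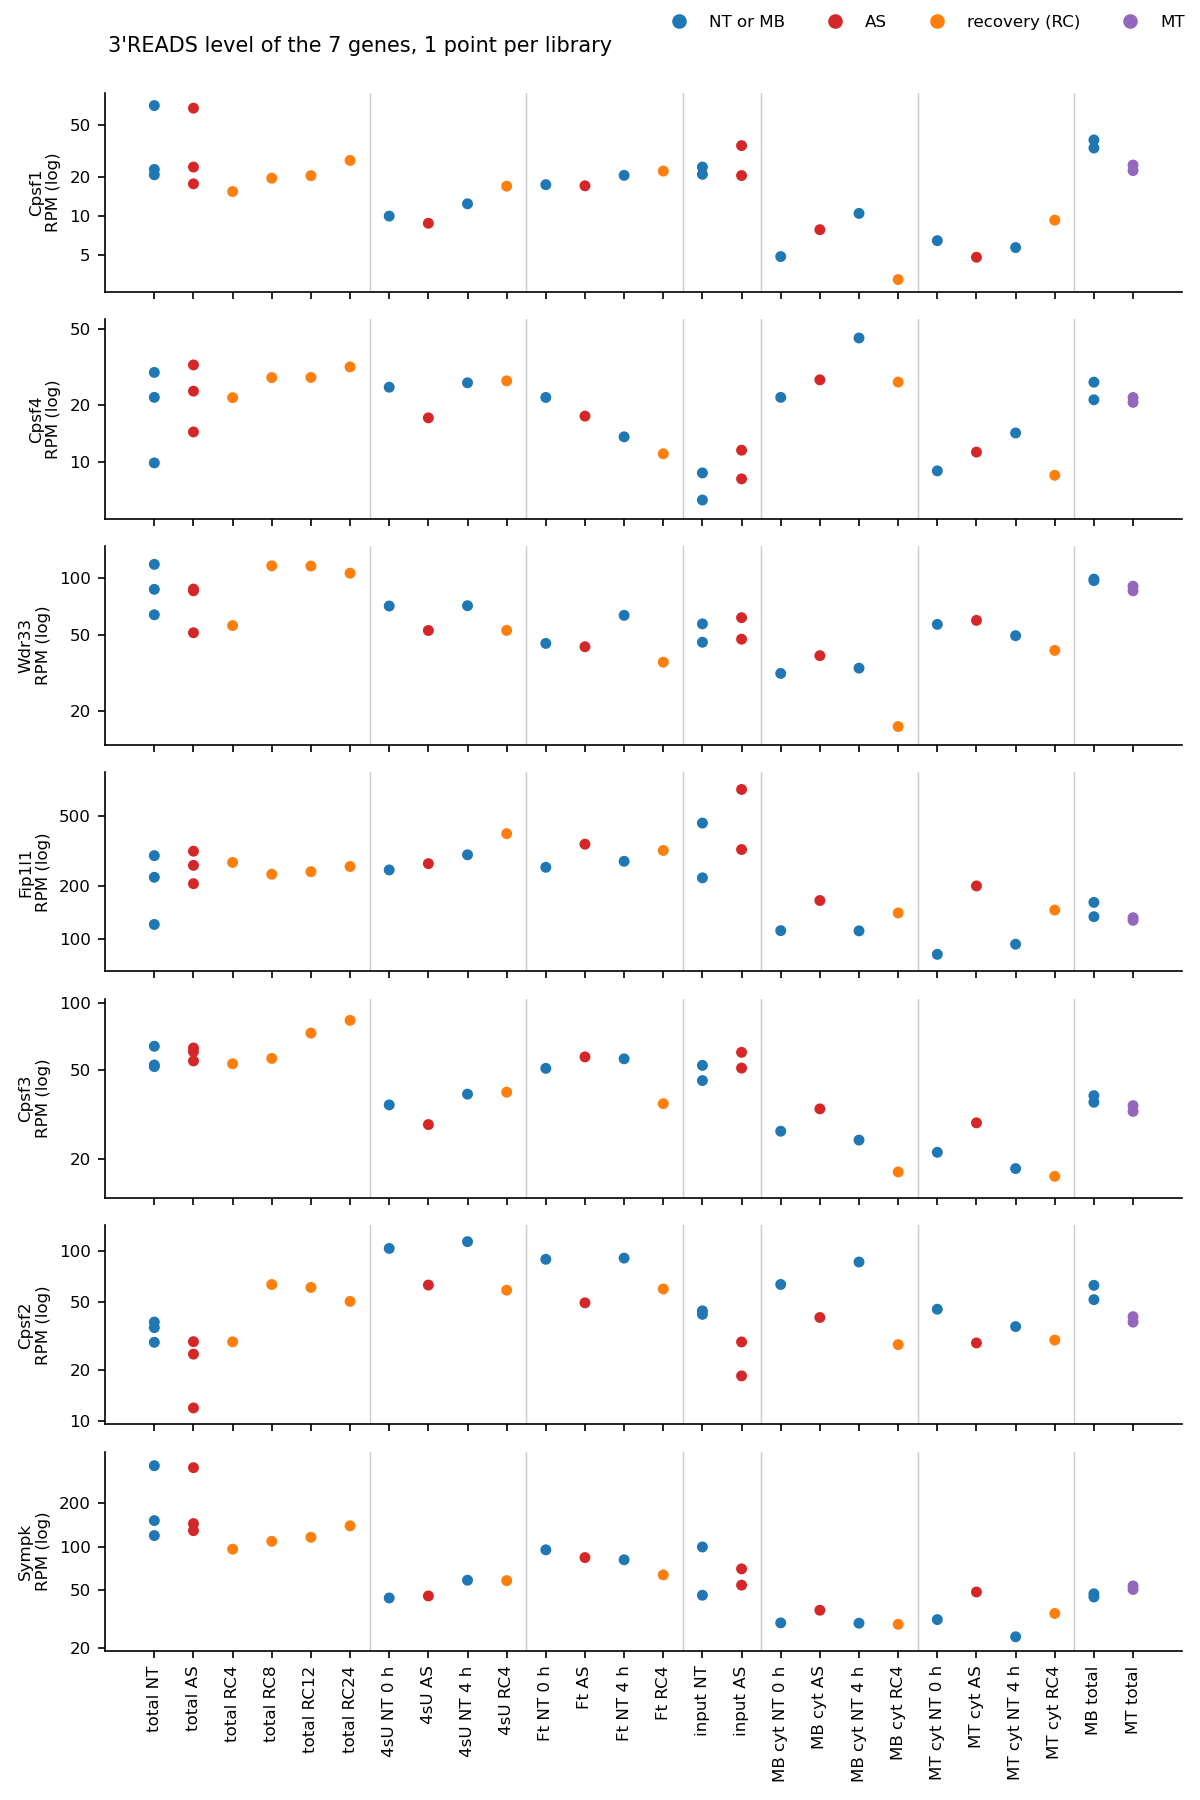
Level of each CPSF gene in RPM (log axis) in the 3′READS libraries other than those of TIA1, 1 point per library, with groups along the horizontal axis. Fip1l1 in the cytoplasm of C2C12 cells lay at 81.9 to 112 RPM in the 4 NT libraries and at 140 to 200 in the 4 AS and RC4 libraries, while Cpsf2 was lower in AS than in the NT libraries of every set but total RNA, where one AS value overlapped NT.

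None of the 7 genes passed the test between AS and NT at the gene level (edgeR, adjusted p below 0.05 over all genes). None did with DESeq2, which gave no adjusted p for them in MT cytoplasm. The share of all genes that passed was 3.89% in RNA-seq, 0.0% in total RNA, 3.87% in 4sU, 0.692% in Ft, 0.0103% in input, 0.109% in MB cytoplasm and 0.0594% in MT cytoplasm. In total RNA the 7 genes known to respond to arsenite had a median log2 change of 2.85, and 0 of them passed. That fit could thus hardly call a change, and the total RNA result says little about the CPSF genes. At an unadjusted p below 0.05, edgeR gave 2 of the 7 genes in RNA-seq (Fip1l1 and Cpsf2), 1 each in 4sU, Ft and MB cytoplasm (Cpsf2 each time), 2 in MT cytoplasm (Fip1l1 and Sympk) and 0 in total RNA and input. Of all genes, 15.2% were at that level in RNA-seq, 18.9% in 4sU, 10.4% in Ft, 9.56% in MB cytoplasm, 9.76% in MT cytoplasm, 0.212% in total RNA and 1.64% in input. The median log2 change of the 7 genes lay between −0.21 (4sU) and 0.21 (MB cytoplasm), and that of all genes between −0.05 and 0.00.

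Cpsf2 was lower in AS in all 7 comparisons, by a log2 change of −1.01 to −0.41, and with reads divided by the library total alone as well. In 4sU it went from 104 and 114 RPM in NT to 63.1 in AS (log2 change −0.62 ± 0.22 (SE), edgeR adjusted p = 0.166). In Ft it went from 89.6 and 91.1 RPM to 49.6 (−0.86 ± 0.23, adjusted p = 0.154), in MB cytoplasm from 63.6 and 86.3 to 40.6 (−0.94 ± 0.33, adjusted p = 0.470) and in MT cytoplasm from 45.4 and 35.9 to 28.7 (−0.52 ± 0.33, adjusted p = 0.681). The AS library lay below both NT libraries in each of these sets. In input, 44.5 and 42.4 RPM in NT stood against 18.4 and 29.1 in AS (−1.01 ± 0.47, adjusted p = 1), again without overlap. In total RNA, 35.4, 29.0 and 38.2 RPM (replicates 1, 2 and 4) stood against 24.7, 29.2 and 11.9, so that replicate 2 did not fall (−0.58 ± 0.47, adjusted p = 1). RNA-seq gave 1994 and 1920 counts in NT and 1803 in AS, or 44.7, 47.8 and 33.7 RPKM (−0.41 ± 0.17, adjusted p = 0.224). None of these differences passed the correction.

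Fip1l1 was higher in AS in all 7 comparisons, by 0.13 to 1.16, except that it was −0.01 in 4sU when only the library total was used and −0.14 in input without AS replicate 2. It was at 81.9 and 93.5 RPM in NT and 200 in AS in MT cytoplasm (1.16 ± 0.22, adjusted p = 0.319), where the AS library held more than any NT library of C2C12 cytoplasm. In MB cytoplasm it was at 112 and 111 RPM in NT and 165 in AS (0.51 ± 0.23, adjusted p = 0.546), and in Ft at 255 and 276 against 344 (0.38 ± 0.20, adjusted p = 0.577). In total RNA, AS exceeded NT within each replicate number (314 against 297, 206 against 121 and 261 against 224 RPM), although the groups overlapped. RNA-seq gave 462 and 497 RPKM in NT and 566 in AS (0.28 ± 0.13, adjusted p = 0.311). In 4sU the values were 246 and 300 RPM in NT and 267 in AS, which overlapped.

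For the other 5 genes the sign varied between the comparisons. Cpsf1 ranged from −0.36 to 0.16, Cpsf4 from −0.41 to 0.34, Wdr33 from −0.32 to 0.21, Cpsf3 from −0.30 to 0.53 and Sympk from −0.34 to 0.80. In total RNA, same-numbered NT and AS libraries deviated together from their group means (r = 0.865, 0.849 and 0.796), so the fit was repeated with the replicate as a block. With it, 10 of 9917 genes passed in place of 0 and 0 of the 7 CPSF genes did. Fip1l1 was then at 0.37 ± 0.16 (edgeR adjusted p = 0.801) and Cpsf2 at −0.52 ± 0.28 (adjusted p = 0.868).

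At RC4, RNA-seq called 4 of the 7 genes, against a background of 49.3% of all genes. Fip1l1 was the gene called higher (24.7% of all genes were), and Cpsf2, Wdr33 and Cpsf1 were called lower (24.6% were). The median of the 7 genes was −0.02 and that of all genes −0.06. Fip1l1 had 16137 and 15630 counts in NT and 24079 in RC4 (0.86 ± 0.13, edgeR adjusted p = 3.16e-05). Cpsf2 had 1994 and 1920 counts in NT and 954 in RC4 (−0.77 ± 0.17, adjusted p = 0.00117), Wdr33 1375 and 1281 against 713 (−0.63 ± 0.18, adjusted p = 0.00713), and Cpsf1 1430 and 1315 against 834 (−0.45 ± 0.18, adjusted p = 0.0409). In counts the RC4 library lay outside the NT range for each of the 4 genes. It also did so for Cpsf3 (873 and 981 in NT, 792 in RC4) and Sympk (3633 and 2972 against 2695), which were not called. The share of all genes placed so is not given here, so this adds nothing to the test. Cpsf1 did not pass with DESeq2 (−0.39, adjusted p = 0.196). Cpsf3 (0.03), Cpsf4 (0.08) and Sympk (−0.02) were near 0.

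The RC4 library of RNA-seq gave 20.9% of its reads to 10 genes, against 6.59% to 7.16% in the other 3. The values above are scaled by trimmed means (TMM). By library total alone, the median of all genes was −0.80 in place of −0.06, Fip1l1 was at 0.12 and no longer passed (462 and 497 RPKM in NT, 521 in RC4), Cpsf3 (−0.71) and Sympk (−0.77) passed as lower, and Cpsf2 (−1.52), Wdr33 (−1.38) and Cpsf1 (−1.20) were lower still. The estimate of the spread came from the 2 NT libraries, with 1 residual degree of freedom.

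In the 3′READS comparisons of RC4, Fip1l1 passed in 4sU and Ft and no other CPSF gene passed. In 4sU, where 24.6% of all genes passed, Fip1l1 was at 246 and 300 RPM in NT and 395 in RC4 (0.81 ± 0.19, edgeR adjusted p = 0.0125). In Ft, where 23.9% passed, it was at 255 and 276 RPM in NT and 317 in RC4 (0.70 ± 0.19, adjusted p = 0.0271). The RC4 library lay above both NT libraries in each fraction. Cpsf2 in 4sU was at 104 and 114 RPM in NT and 58.9 in RC4 (−0.61 ± 0.21, adjusted p = 0.0651), and Cpsf1 at 9.94 and 12.4 against 16.9 (0.87 ± 0.35, adjusted p = 0.100). By library total alone Fip1l1 passed in neither fraction (0.52 in 4sU and 0.25 in Ft, with all genes at −0.31 and −0.44), and Cpsf2 passed in 4sU in its place (−0.90, adjusted p = 0.0138). The Ft call was also lost without either Ft NT library (0.66 without the one of 0 h and 0.74 without the one of 4 h).

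In C2C12 cytoplasm, Fip1l1 was at 112 and 111 RPM in NT and 140 in RC4 in MB (0.67 ± 0.23, edgeR adjusted p = 0.171) and at 81.9 and 93.5 in NT and 146 in RC4 in MT (0.89 ± 0.22, adjusted p = 0.141). In MB and MT, 1.52% and 1.51% of all genes passed, and 0 of the 7 CPSF genes did. By edgeR, 2 CPSF genes in MB (Fip1l1 and Cpsf2) and 1 in MT (Fip1l1) had an unadjusted p below 0.05, as did 21.4% and 15.5% of all genes, and by DESeq2 0 passed in either. Cpsf2 in MB was at 63.6 and 86.3 RPM in NT and 28.1 in RC4, the lowest of the set (−1.09 ± 0.34, adjusted p = 0.148). In MT it was at 45.4 and 35.9 RPM in NT and 29.9 in RC4 (−0.28 ± 0.33, adjusted p = 0.776). The responses of MT and MB did not differ by a test of the difference in any of the 7 genes (interaction, edgeR: 0 of 10101 genes for AS and for RC4, with 572 and 878 at an unadjusted p below 0.05 and 10 and 8 by DESeq2). For Fip1l1 the difference MT minus MB was 0.64 ± 0.33 in AS and 0.22 ± 0.33 in RC4.

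In total RNA at RC4, 0.0% of genes passed, 517 had an unadjusted p below 0.05 and 23 passed with DESeq2, of which 17 were higher. The 7 genes known to respond to arsenite had a median log2 change of 4.28 here, and 0 of them passed. The fit without a block therefore says little about the CPSF genes. Fip1l1 was at 297, 121 and 224 RPM in NT and 272 in RC4, Cpsf2 at 35.4, 29.0 and 38.2 against 29.2, and Wdr33 at 64.1, 87.1 and 118 against 56.2. Only for Wdr33 did the RC4 library lie outside the NT range among these 3 genes. With the replicate as a block, 422 genes passed as higher and 248 as lower but none of the 7 did: Wdr33 was at −0.77 ± 0.26 (edgeR adjusted p = 0.122), Fip1l1 at 0.56 ± 0.25 (adjusted p = 0.218), and Cpsf2 at 0.20 ± 0.47, which turned its sign from −0.10. Wdr33 was lower in RC4 in all 6 comparisons (−0.64 to −0.15 by TMM) and Fip1l1 higher in all 6 (0.49 to 0.89), as they were by library total alone. The sign of Wdr33 turned in Ft without the NT library of 4 h (0.09) and, with last-exon PASs only, in Ft (0.02) and MT cytoplasm (0.34).

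**Figure D2:**
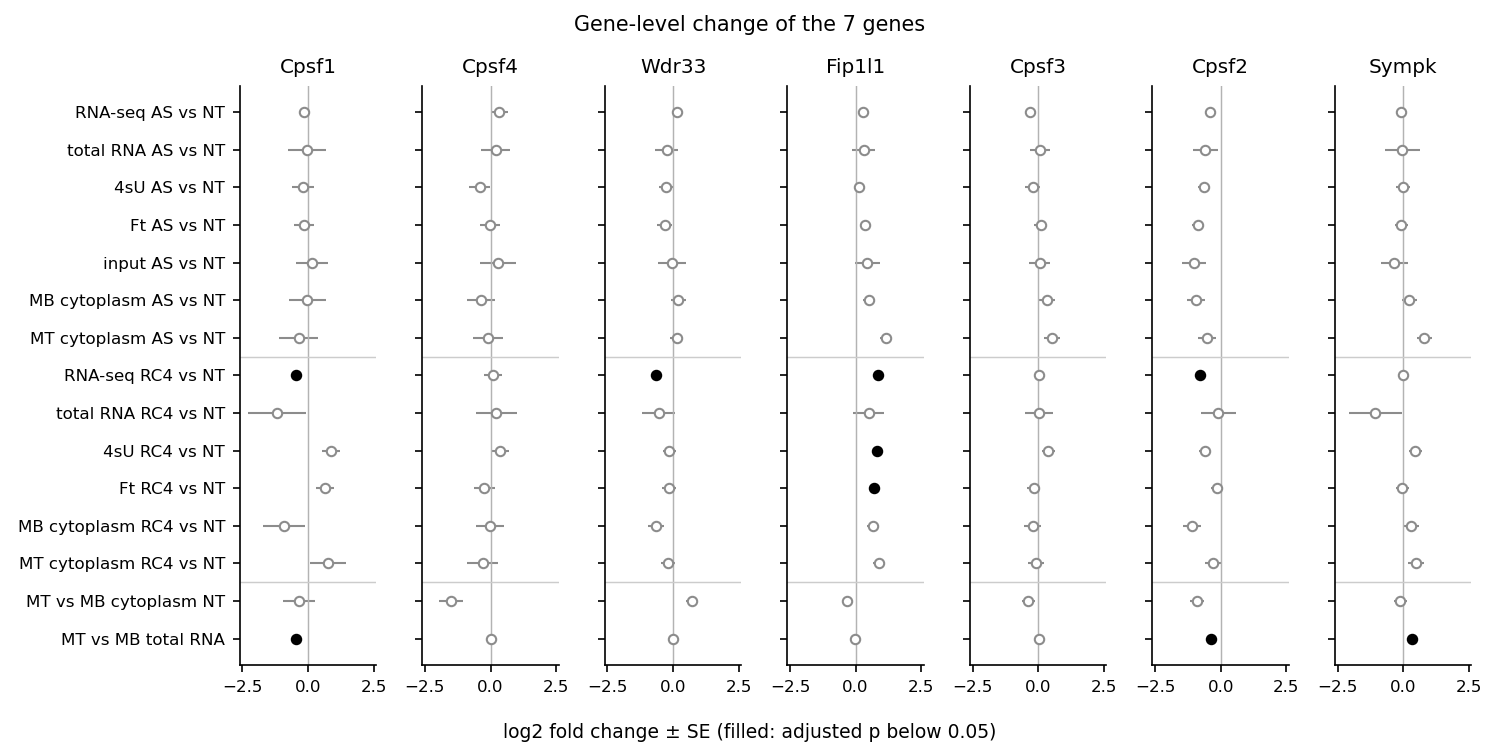
Log2 fold change (horizontal axis, ± SE) of each CPSF gene in 15 gene-level comparisons (vertical axis), with filled points for an edgeR adjusted p below 0.05. Fip1l1 lay to the right of 0 in the AS comparisons (0.13 to 1.16) and in the RC4 comparisons (0.49 to 0.89), and Cpsf2 to the left of it (−1.01 to −0.41 and −1.09 to −0.10). By library total alone Fip1l1 was at −0.01 in 4sU AS.

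PAS use was compared next, with the relative expression difference (RED), the log2 change of the ratio of dPAS to pPAS reads, for the 2 most used 3′UTR PASs of a gene. Where a condition had 1 library, Fisher's exact test (two-sided) compared the libraries, not the conditions, and a gene was called at an unadjusted p below 0.05 with a change of over 5 percentage points. Fip1l1 shifted to its pPAS in newly made RNA. Its dPAS, whose use adds 2637 nt of 3′UTR, took 15.5% and 17.7% of 4sU reads in NT, 6.84% in AS and 6.48% in RC4 (95% Wilson intervals 12.8 to 18.6, 15.6 to 20.0, 5.00 to 9.29 and 5.39 to 7.76). The NT intervals do not overlap those of AS and RC4. The RED was −1.47 in AS (Fisher's exact p = 6.02e-10) and −1.56 in RC4 (exact p = 6.79e-22), in comparisons where 25.3% and 25.9% of all genes were called shortened.

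In Ft the dPAS of Fip1l1 took 5.56% and 6.03% in NT, 2.46% in AS and 1.84% in RC4, with RED values of −1.29 and −1.72, but the change was under 5 points. In total RNA it took 4.54%, 4.85% and 7.41% in NT (replicates 1, 2 and 4), 4.00%, 2.45% and 3.97% in AS and 1.61% in RC4, so AS was below NT within each replicate number. The dPAS was not tested there or in input, where the second most used site was another, 216 nt past the coding sequence. In MT cytoplasm it took 9.19% and 5.04% in NT, 3.14% in AS and 3.23% in RC4, again a change under 5 points. All of these libraries placed AS and RC4 below their NT libraries. MB cytoplasm did not: its NT libraries listed 0 dPAS reads beside 177 and 192 at the pPAS, and AS had 2.65% and RC4 2.01%. Input had 2.96% and 1.85% in NT and 1.37% and 0.86% in AS.

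**Figure D3:**
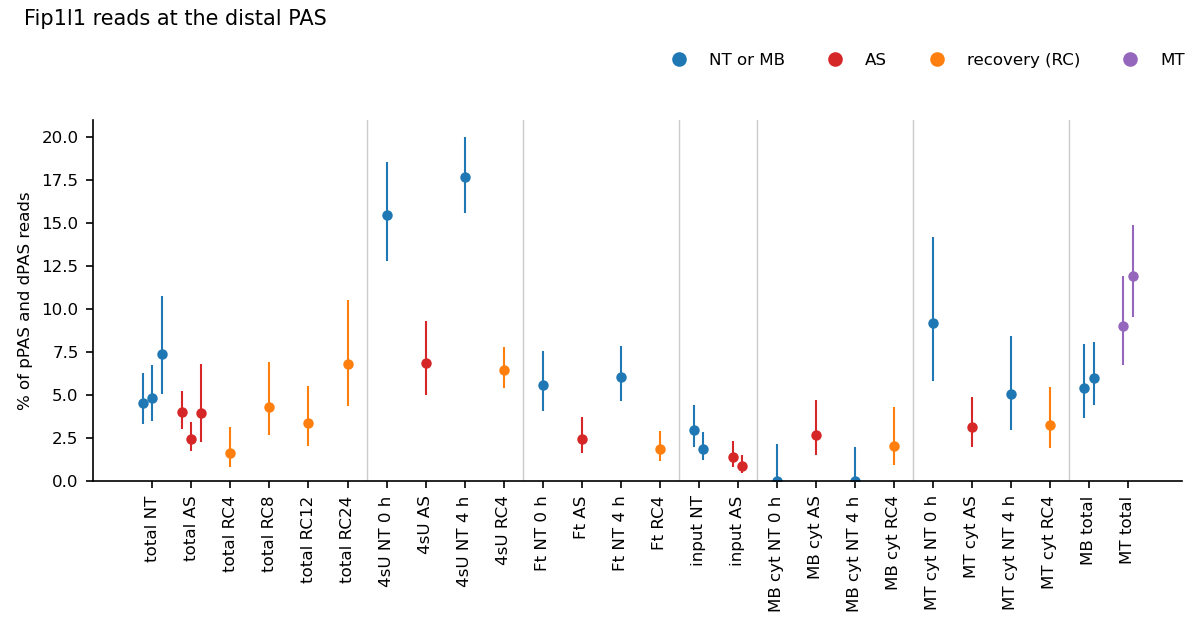
Share of Fip1l1 reads at its dPAS among reads at pPAS and dPAS (vertical axis, percent), 1 point per library with the 95% Wilson interval, which covers counting error only. The 4sU NT libraries stood highest, at 15.5% and 17.7%, and AS and RC4 lay below NT in each NIH3T3 set and in MT cytoplasm.

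Among the other genes, Cpsf2 and Wdr33 were called shortened in Ft at AS, where 14.2% of all genes were. Cpsf2 went from 16.6% to 8.47% of reads at its 1063 nt site against its 768 nt site (RED −1.10, Fisher's exact p = 0.0309). Wdr33 went from 83.5% to 67.5% at the more distal of its main pair of sites (RED −1.28, exact p = 0.00493). Neither was called in 4sU, MB or MT cytoplasm, in AS or RC4, and neither was called in Ft at AS against the NT library of 0 h alone, an alternative chosen after seeing the data (Cpsf2 RED −1.05, exact p = 0.0673, and Wdr33 RED −0.83, exact p = 0.149). Wdr33 had too few reads to be tested in MB cytoplasm at RC4, with 9 reads in its last exon. In total RNA the test across replicates (edgeR) called 0 of 1644 genes and gave 0 with an unadjusted p below 0.05. Cpsf2 was at 0.38 ± 0.59 and Wdr33 at −0.47 ± 1.23. The Cpsf2 pair in total RNA was another, its 2311 nt site against its 1063 nt site. Its value there therefore does not measure the shift seen in Ft. With the replicate block 0 genes passed and 154 had an unadjusted p below 0.05. At RC4 in total RNA (replicate 4 alone), 14.8% of genes were called and none of these.

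Cpsf2 PAS use differed more between the sets of libraries than with arsenite. The 768 nt site took 56.2% to 81.0% of Cpsf2 reads in C2C12 cytoplasm, 73.4% to 82.6% in Ft and 48.1% to 59.8% in C2C12 total RNA. In NIH3T3 total RNA it took 10.7% to 30.9% in 9 of 10 libraries and was not listed in the AS library of replicate 4, which had 14 Cpsf2 reads. In 4sU of the same cells it took 56.1% to 70.1%, so 4sU and Ft lay above all NIH3T3 total RNA libraries. In the NIH3T3 cytoplasmic input it took 15.8% to 24.7%, within the range of total RNA and below that of C2C12 cytoplasm. In NIH3T3 total RNA the 1063 nt site took 32.4% to 57.1% of reads, more than the 768 nt site in each library. The sets were prepared apart, and the part of the preparation in this difference was not tested.

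**Figure D4:**
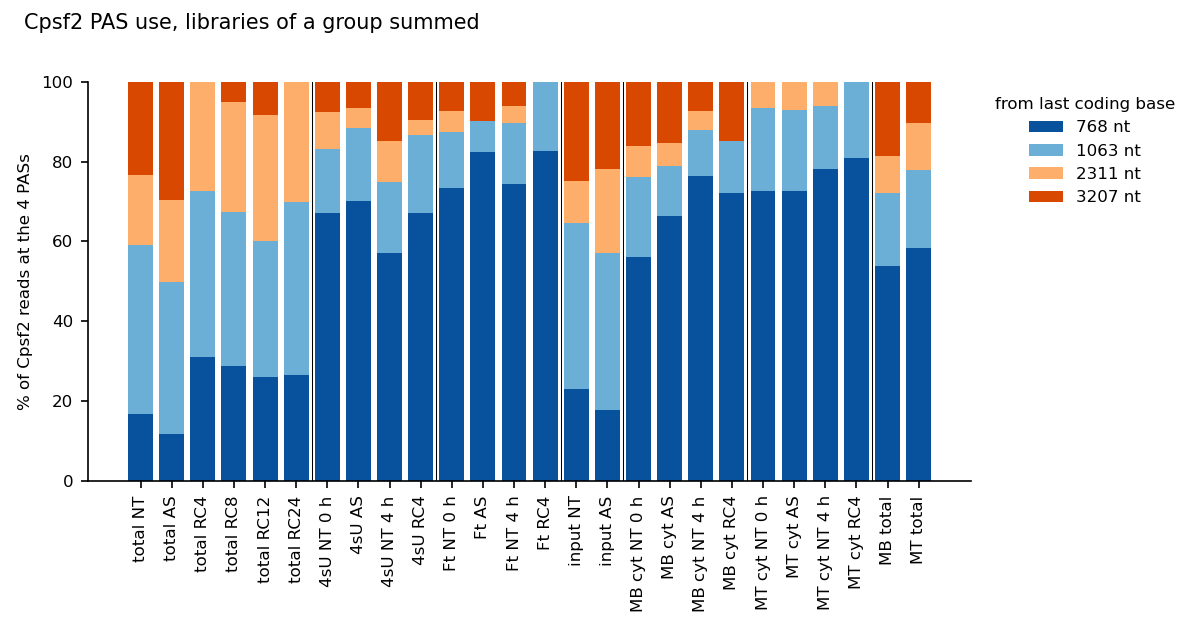
Share of Cpsf2 reads at each of its 4 PASs (vertical axis, percent of reads at the 4 PASs alone, libraries of a group summed), with colours for the distance of the site from the last coding base. The 768 nt site took 16.8% in total NT and 67.1% and 57.0% in the 4sU NT libraries.

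MT and MB were compared in untreated total RNA, where 61.7% of all genes passed. Of the 7 CPSF genes 3 passed, 1 higher and 2 lower, against 32.4% and 29.3% of all genes, and the median of the 7 was 0.01 (all genes, 0.04). Cpsf1 was at 33.3 and 38.5 RPM in MB and 22.3 and 24.6 in MT (−0.45 ± 0.17, edgeR adjusted p = 0.0325), and Cpsf2 at 62.9 and 51.8 against 38.1 and 41.1 (−0.36 ± 0.15, adjusted p = 0.0499). Sympk was at 47.2 and 44.9 RPM in MB and 50.6 and 53.5 in MT (0.35 ± 0.14, adjusted p = 0.0436). The RPM of MB and MT libraries did not overlap for these 3 genes, but it did not for Cpsf3, Fip1l1 and Wdr33 either, which were not called. The lack of overlap therefore does not set the 3 genes apart. Their adjusted p-values were near the threshold and DESeq2 called none of them. Cpsf3 (38.5 and 36.0 against 34.7 and 32.7 RPM), Cpsf4 (26.2 and 21.2 against 21.8 and 20.5) and Fip1l1 (134 and 161 against 128 and 132) differed by 0.02 or less on the log2 scale after TMM scaling. In cytoplasmic NT RNA 20.3% of genes passed and 0 of the 7 did, with 3 at an unadjusted p below 0.05 (edgeR, as 37.0% of all genes) and 0 by DESeq2: Cpsf4 was at −1.50 ± 0.45 (adjusted p = 0.0648), Cpsf2 at −0.89 ± 0.26 (0.0623) and Wdr33 at 0.71 ± 0.23 (0.0741).

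Wdr33 had a similar summed level in MT and MB and different ends. The level was 96.8 and 98.6 RPM in MB and 90.5 and 85.6 in MT (0.01 ± 0.12, edgeR adjusted p = 0.929). PASs upstream of the last exon, chiefly the one in intron 6, took 20.4% and 20.2% of its reads in MB (95% Wilson intervals 16.3 to 25.2 and 16.6 to 24.5) and 55.9% and 59.6% in MT (50.6 to 61.0 and 54.6 to 64.4). The intervals of MB and MT lie far apart. The last-exon ends, which belong to the full-length mRNA, fell from 77.1 and 78.6 RPM to 39.9 and 34.5, while upstream ends rose from 19.7 and 20.0 RPM to 50.6 and 51.0. The intron 6 site alone went from 15.7 and 13.3 RPM in MB to 39.2 and 36.8 in MT.

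The test of last-exon against upstream reads in MT and MB gave a log2 change of −2.42 ± 0.26 (edgeR adjusted p = 4.19e-18), in a comparison where 37.5% of 557 genes were called. It was chosen after the shares of Wdr33 had been seen. Leaving out each library in turn gave −2.53 to −2.31, with adjusted p-values up to 0.0202. Counting the last exon alone, Wdr33 was lower in MT (−0.92 ± 0.14, edgeR adjusted p = 5.2e-05), where all its PASs summed gave 0.01. In cytoplasmic NT RNA the upstream share was 57.7% and 58.6% in MB and 70.7% and 75.7% in MT (Fisher's exact p = 0.00495, where 30.3% of genes were called). The direction was that of total RNA, with a smaller difference and with both shares higher.

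With arsenite, the upstream share of Wdr33 was lower than in NT in 4sU and MT cytoplasm at both times and in Ft at RC4. In 4sU it went from 17.3% and 16.6% in NT to 6.09% in AS (Fisher's exact p = 0.00295) and 10.6% in RC4 (exact p = 0.0317), where 9.73% and 8.47% of genes were called lower upstream. In MT cytoplasm it went from 70.7% and 75.7% to 58.3% (exact p = 0.00132) and 60.7% (exact p = 0.0163), where 11.4% and 13.9% were called lower. In Ft it was 22.6% and 24.2% in NT, 25.2% in AS and 12.6% in RC4 (exact p = 0.0152 for RC4, where 11.1% were called lower). Other sets did not show this: MB cytoplasm had 57.7% and 58.6% in NT, 49.0% in AS and 75.0% in RC4 (36 reads in all). Input replicate 2 rose from 18.1% to 35.5% (exact p = 0.00328), where 5.49% of genes were called higher upstream. Input replicate 1 had 48 upstream reads of 209 in NT and 35 of 161 in AS (exact p = 0.803). In total RNA the share was 23.8%, 16.6% and 0% (none listed) in NT, 16.7%, 12.2% and 5.83% in AS and 6.60% in RC4. Replicates 1 and 2 of total RNA went down in AS. Replicate 4 had 0 listed upstream reads of 176 in NT and 6 of 103 in AS. Sites under 5 reads are not listed, so the direction in replicate 4 cannot be told.

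**Figure D5:**
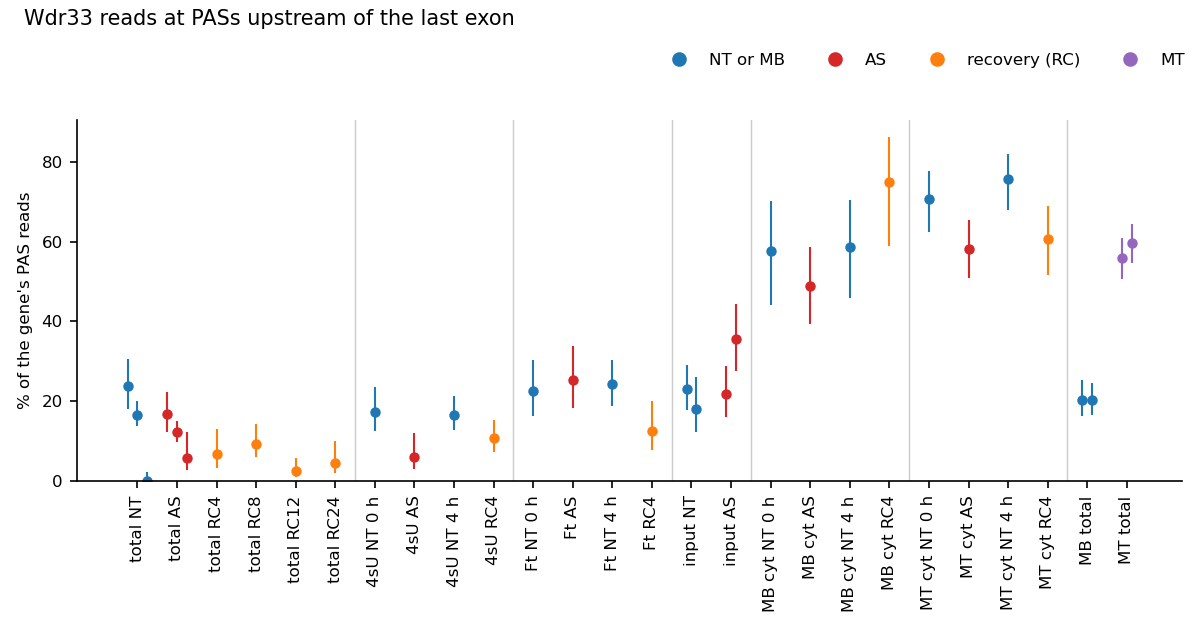
Share of Wdr33 reads at PASs upstream of the last exon (vertical axis, percent), 1 point per library with the 95% Wilson interval, which covers counting error only. MT total RNA stood at 55.9% and 59.6% and MB total RNA at 20.4% and 20.2%.

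In MT, Fip1l1 used its dPAS more than in MB in total RNA. The dPAS took 5.41% and 5.97% of reads in MB and 9.01% and 11.9% in MT, without overlap (RED 0.95 ± 0.29, edgeR adjusted p = 0.0148). In this comparison 18.1% of 3212 genes were called, 415 lengthened and 167 shortened. The call was lost without MT replicate 3 (RED 0.70, adjusted p = 0.278). Cpsf2 (−0.04 ± 0.33) and Wdr33 within its last exon (0.18 ± 0.37) did not pass, and Cpsf1, Cpsf3, Cpsf4 and Sympk had no tested pair of sites. The Wdr33 pair here was its 405 nt site against its 380 nt site, another than in the other sets.

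A list of 18 other genes, drawn up for cleavage and polyadenylation, was tested in the same fits. It held genes of the stimulation factor, cleavage factors I and II, the poly(A) polymerases, the nuclear poly(A) binding protein and the phosphatase module. Rbbp6 and Zc3h4 were listed besides these groups. In RNA-seq 1 of 18 rose in AS, where 3.18% of all genes did. It was Pcf11 of cleavage factor II (1.28 ± 0.14, edgeR adjusted p = 1.40e-05). At RC4 5 rose and 1 fell, where 24.7% of all genes rose and 24.6% fell. The largest changes were those of Cpsf6 of cleavage factor I (1.80 ± 0.14, edgeR adjusted p = 1.32e-08) and Cstf3 of the cleavage stimulation factor (1.61 ± 0.17, adjusted p = 7.53e-07). In 4sU at AS 2 of 17 rose and 1 fell (2.11% and 1.77% of all genes did), led by Cstf2t (−1.62) and Cstf3 (1.26), and at RC4 1 rose (13.2% of all genes), Cpsf6 (1.18). In Ft at AS 1 fell, Cstf2t (−1.58), while 0.43% of all genes rose and 0.262% fell. At RC4 3 rose (14.4% of all genes), led by Cpsf6 (1.33) and by the poly(A) polymerase Papola (0.83). In C2C12 cytoplasm 0 of 16 passed in MB or in MT at AS, and 1 rose in MT at RC4, Cstf3 (1.44), where 1.19% of all genes rose (1.04% in MB). In MT against MB total RNA 4 of 17 rose and 7 fell (32.4% and 29.3% of all genes did), led by Nudt21 of cleavage factor I (−1.82) and Zc3h4 (−1.34). In cytoplasmic RNA 3 of 16 fell (8.31% of all genes), led by the phosphatase Ppp1ca (−0.84) and Cstf3 (−0.73). The 18 genes' medians were 0.25 in RNA-seq at RC4 and −0.32 in MT against MB total RNA, beside −0.02 and 0.01 for the CPSF genes. No test compared the lists.

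Another list held genes for 3′ end processing of histone pre-mRNAs (Slbp, Lsm10, Lsm11, Casp8ap2 and Zfp473), which the same endonuclease cuts. Of these genes 2 of 5 were lower in RNA-seq at RC4 (24.6% of all genes were). In 4sU and in Ft at RC4 1 of 4 was lower (11.5% and 9.57% of all genes were). In MT against MB total RNA 1 of 4 was higher and 3 were lower (32.4% and 29.3% of all genes were). In MT against MB cytoplasmic RNA 1 of 4 was lower (8.31% of all genes were). Of the Integrator paralogs of Cpsf3 and Cpsf2 (Ints11 and Ints9), 1 of 2 was lower in RNA-seq at RC4 (24.6% of all genes were). No other AS, RC4 or MT comparison called a gene of either list.

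Across the 38 libraries, Pearson's r between the log2 level of a CPSF gene and the mean of the 7, which contains that gene, was 0.891 for Cpsf3, 0.744 for Sympk, 0.669 for Cpsf1, 0.635 for Wdr33, 0.525 for Fip1l1, 0.333 for Cpsf4 and 0.204 for Cpsf2. In the order of all 12211 genes by this measure they ranked 1, 136, 445, 657, 1402, 3203 and 4714. Cpsf3 and Sympk were the most alike pair (0.784) and Cpsf2 and Sympk the least (−0.265). Outside the list, Myh10 (0.869), Ercc2 (0.852) and Kifc5b (0.852) were nearest to the mean. These values describe libraries that share sets, cell lines and depth.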

How the data were processed

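Per the labels and methods, 3′READS reads were adapter-trimmed (cutadapt) and aligned to the mm9 genome (Bowtie2), and reads with nongenomic Ts at the cut site were kept; the authors deposited their counts per PAS position. RNA-seq reads were aligned with STAR, and the authors deposited counts in coding sequence per gene. Positions on 1 strand within 24 nt were joined (99725 positions, 83916 PASs). No molecular identifiers were used, so intervals (95% Wilson) cover counting error only.

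Counts per gene were tested with edgeR 4.0.16 (quasi-likelihood, TMM, filterByExpr, R 4.3.3) in 1 fit per set: RNA-seq (11649 genes, 1 residual degree of freedom), total RNA (9917, 4), 4sU with Ft (10688, 2), C2C12 cytoplasm (10101, 2), C2C12 total (10209, 2) and input with TIA1 (9697, 4). A group of 1 library was assumed to vary like the NT libraries. p-values were adjusted over all genes of a comparison (Benjamini-Hochberg). PAS pairs were tested with edgeR where both conditions had replicates, otherwise with two-sided Fisher's exact tests (SciPy 1.17.1) against the summed NT libraries. RPM divides by all PAS reads of a library, RPKM by coding length and by all gene counts.

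The members and gene lists were chosen with earlier results of these data known. The text names all 7 members, genes of the other lists that passed (led by the largest change), and the 3 genes nearest in pattern to the members' mean standardized log2 level. Same-numbered total RNA libraries deviated together (r = 0.865, 0.849 and 0.796), which is seen in the data and not stated by the labels. Alternatives were DESeq2 1.42.0, RLE scaling, no filter, a replicate block, other PAS choices and leaving out libraries. Chosen after seeing the data were the library total alone, the last-exon against upstream test and NT of the same time for Fisher's tests. The code was tested on simulated data.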

Additional observations from a re-analysis of the deposited data

How the results depend on the processing

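Of the 7 genes, the number that passed at the gene level changed as follows. In Ft at RC4 it went from 1 to 0 with the NT library of the same time or with the library total only, and was 0 to 1 when single libraries were left out (0 without either Ft NT library). In MB cytoplasm at RC4 it was 1 with the NT library of the same time, and 0 to 1 without single libraries, as in MB at AS (Cpsf2, without NT of 0 h). In MT cytoplasm at AS and at RC4 it was 0 to 1 without single libraries (Fip1l1), and in MT against MB cytoplasm 0 to 2 (Cpsf4 and Cpsf2, without MB NT of 0 h). In RNA-seq at RC4 it went from 4 to 3 with DESeq2 or RLE (Cpsf1 lost) and to 5 by library total. In MT against MB total RNA it went from 3 to 0 with DESeq2, to 1 with no filter, to 2 with RLE, a 1 kb extension (Cpsf2 lost by either) or the library total (Sympk lost), and to 0 to 1 without single libraries. With last-exon PASs it was 3, with Wdr33 in the place of Sympk. Under the replicate block there the number stayed 3, and in input under the block it was 0. Fip1l1 passed in PAS use between MT and MB in the comparison reported, but 0 did when the outermost PASs of the 3′UTR were taken, 0 in both pairs by Fisher's exact tests (it passed in replicate 3 and not in replicate 2) and 0 to 1 without single libraries. The outermost PASs also gave 0 in 4sU at AS and at RC4, where the dPAS of Fip1l1 holds under 10% of its 3′UTR reads and is not considered. In Ft at AS 2 became 1 with that choice or with more than 20 reads, and 0 with NT of the same time, which gave 1 (Fip1l1) in MT at AS.

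Of 1015 fold changes of the 7 genes under alternatives, 77 had another sign than reported, 0 of them for a gene that passed as reported. The 2 that passed with the turned sign were Cpsf3 in RNA-seq at RC4 (−0.71 by library total only) and Wdr33 in MT against MB total RNA (−0.92 with last-exon PASs only). RNA-seq without an NT library has no residual degrees of freedom and gave values only. Counts over all genes moved with the block, the scaling, the tool and the choice of NT. The block gave 10 higher and 0 lower in total AS (0 and 0 without it), 422 and 248 in total RC4, and 13 and 0 in input (1 and 0). With library totals, genes higher and lower became 1162 and 6568 in RNA-seq RC4 (2873 and 2867 with TMM), 159 and 303 in 4sU AS (225 and 189), 890 and 2087 in 4sU RC4 (1408 and 1224), 886 and 2409 in Ft RC4 (1535 and 1023) and 63 and 97 in MB RC4 (105 and 49). DESeq2 gave 222 and 45 in RNA-seq AS (370 and 83 with edgeR), 936 and 790 in 4sU RC4, 67 and 59 in Ft AS (46 and 28), 46 and 12 in MB AS (11 and 0), 44 and 8 in MT AS (6 and 0), 730 and 473 in MT against MB cytoplasm (1213 and 839), 17 and 6 in total RC4 and 17 and 1 in input. NT of the same time gave 155 and 89 in 4sU AS, 25 and 4 in Ft AS, 78 and 14 in MB AS, 940 and 838 in MB RC4, 0 and 0 in MT AS and 11 and 0 in MT RC4 (120 and 33 with both). No filter gave 71 and 56 in Ft AS and 15 and 2 in input. Without MB NT of 0 h the interaction test gave 22 and 95 genes in AS and 99 and 121 in RC4 (0 with all libraries). The cause was not tested.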

Other observations

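In the TIA1 immunoprecipitates, Fip1l1 was at 89.3 and 102 RPM in NT and 296 and 366 in AS, beside 222 and 454 and then 321 and 703 RPM in the matching inputs. Cpsf2 was at 88.4 and 43.5 RPM in NT and 54.6 and 63.8 in AS. Its 768 nt site took 4.26% and 0% of its reads in NT and 0% and 15.2% in AS.

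In untreated NIH3T3 cells, Sympk, Cpsf1 and Cpsf3 had more RPM in preexisting (Ft) than in newly made (4sU) RNA. The share of all genes placed so is not given here, so this does not set the CPSF genes apart. Unlike in the study, the levels were not adjusted for the number of uridines in a transcript. Sympk was at 81.1 RPM or above in both Ft libraries and at 44.2 and 58.6 in 4sU, Cpsf1 at 17.4 and 20.5 against 9.94 and 12.4, and Cpsf3 at 51.1 and 56.4 against 35.0 and 39.1. Cpsf2 was at 89.6 and 91.1 RPM in Ft and 104 and 114 in 4sU.

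Later in recovery, with 1 total RNA library at each time, Cpsf2 was at 63.6, 61.1 and 50.6 RPM at RC8, RC12 and RC24, above the 29.0 to 38.2 RPM of NT and the 29.2 RPM of RC4. Wdr33 was at 116, 115 and 106 RPM at these times against 56.2 at RC4. The dPAS of Fip1l1 took 1.61% of pPAS and dPAS reads at RC4, 4.32% at RC8, 3.35% at RC12 and 6.82% at RC24.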
